A study of Mus musculus with 12 samples.

Results

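Amino acid transporters were followed across 12 expression arrays of mouse embryoid bodies as 9 genes: Slc7a11, Slc7a5, Slc3a2, Slc7a1, Slc7a3, Slc38a2, Slc1a4, Slc1a5 and Slc6a9. The genes were listed by name, with earlier results of these data known, and they were read by 18 of the 45101 probe sets and are 9 of the 18193 genes measured. Embryoid bodies are aggregates that mouse embryonic stem cells form once the cytokine LIF is withdrawn and they begin to differentiate. Cells of strain 129 were Trim33-KD (a knock-down of Trim33, a nuclear ubiquitin ligase that binds activated Smad2 and Smad3), Smad4-null (lacking Smad4, the partner of the activated Smads) or WT. At day 2.5 each line received either activin (ac, 50 ng/ml), a ligand that activates Smad2 and Smad3, or SB431542 (SB, given in the labels as 10 mM), an inhibitor of the activin and nodal receptors, for 2 h. The 6 groups were therefore Trim33-KD-ac, Trim33-KD-SB, Smad4-null-ac, Smad4-null-SB, WT-ac and WT-SB, with 2 arrays each. No group was left untreated, so an activin difference is always taken against the inhibitor. Line and genotype change together here and cannot be told apart, and nothing in the labels tells whether replicates came from separate cultures, so the p-values can be read only against the spread between these samples, which may be technical.

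Cells take up amino acids through several families of membrane carriers. Slc3a2 is a heavy chain that carries light chains such as Slc7a5, which exchanges large neutral amino acids including leucine, and Slc7a11, which exchanges cystine for glutamate and feeds glutathione synthesis. When amino acids run short, the transcription factor ATF4 is translated and raises many carriers, and the oxidative stress factor NRF2 also acts on Slc7a11. Pluripotent stem cells divide fast and use amino acids for protein synthesis, one-carbon units and redox balance.

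Values are the log2 signals deposited by the authors, where 1 unit is a doubling. Each gene is represented by its brightest probe set, and signals of different probe sets are not comparable as levels. A gene was called when limma's p, adjusted by Benjamini-Hochberg over all 18193 genes, was under 0.05. With 2 arrays a group, precision is set by the number of arrays.

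The labels were read first. Trim33 averaged 10.18 ± 0.23 in Trim33-KD and 11.72 ± 0.16 in WT (SD, n = 4 each), which is 34.4% of WT on the linear scale (adjusted p = 0.0101). The Smad4 probe set averaged 12.17 ± 0.05 in Smad4-null and 11.96 ± 0.07 in WT (adjusted p = 0.142); the sources used here do not say which part of the gene was deleted or where the probes lie, so this signal checks nothing. Marker signals were summed on the linear scale and the log2 of the sum is given. Summed signals of the 6 pluripotency markers lay between 15.69 and 15.87 on all arrays. Of 6 mesendoderm markers, 5 were matched by symbol and T was not. The 5 summed to 10.95 to 12.36 in Trim33-KD and 8.48 to 9.06 in Smad4-null, against 11.96 to 13.06 in WT. Eomes was the brightest of them, at 11.14 in Trim33-KD-ac, 8.46 in Smad4-null-ac and 12.11 in WT-ac. Summed trophectoderm markers (5 of 5 measured) were 11.79 to 12.89 in Trim33-KD and 11.07 to 11.16 in Smad4-null, against 11.31 to 11.70 in WT. Neuroectoderm markers (4 of 4 measured) summed to 8.16 to 8.29 in Trim33-KD and 9.11 to 9.32 in Smad4-null, against 8.75 to 8.87 in WT. Single genes carried the higher trophectoderm sum of Trim33-KD and the higher neuroectoderm sum of Smad4-null. Krt8 averaged 11.92 and 11.89 in Trim33-KD-ac and Trim33-KD-SB, against 10.88 and 10.79 in WT-ac and WT-SB. Cdx2 was at 8.37 and 8.12 against 8.31 and 7.92. Pax6 averaged 8.56 and 8.51 in Smad4-null-ac and Smad4-null-SB, against 6.97 and 6.92 in WT-ac and WT-SB. Map2 went the other way there, at 7.56 and 7.76 against 8.21 and 8.26. In Trim33-KD-ac and Trim33-KD-SB both were lower than in WT, with Pax6 at 6.11 and 6.17 and Map2 at 7.72 and 7.75. Smad4-null also lay apart from WT in 3 further sums. These were extraembryonic endoderm (9.27 to 9.53 against 9.63 to 9.90), fibroblast (8.28 to 8.61 against 8.87 to 9.22) and blood markers (6.66 to 6.999 against 5.72 to 6.57). With both treatments pooled, Trim33-KD overlapped WT in all 3 of these sums. Within each treatment, of these sums only the fibroblast one overlapped. The extraembryonic endoderm sum of Trim33-KD was below WT with activin (9.58 to 9.64 against 9.72 to 9.84) and with SB431542 (9.46 to 9.51 against 9.63 to 9.90). Its blood sum was above WT with activin and below with SB431542. Its mesendoderm sum was below WT with activin (11.41 to 12.36 against 13.05 to 13.06) and with SB431542 (10.95 to 11.41 against 11.96 to 12.04). The part of these marker differences in the transporter differences was not tested. In RNA of whole embryoid bodies, fewer cells of a type and less RNA per cell cannot be told apart. Replicate 1 of WT-ac and of WT-SB had low 18S rRNA signal (5.53 and 5.82, with 7.56 to 10.16 elsewhere), and results that rest on these WT arrays are also given without them. A narrow spread of log2 signal (SD 3.13 and 3.07, with 3.24 to 3.39 elsewhere) marked Smad4-null-ac replicate 1 and WT-SB replicate 2.

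**Figure D1:**
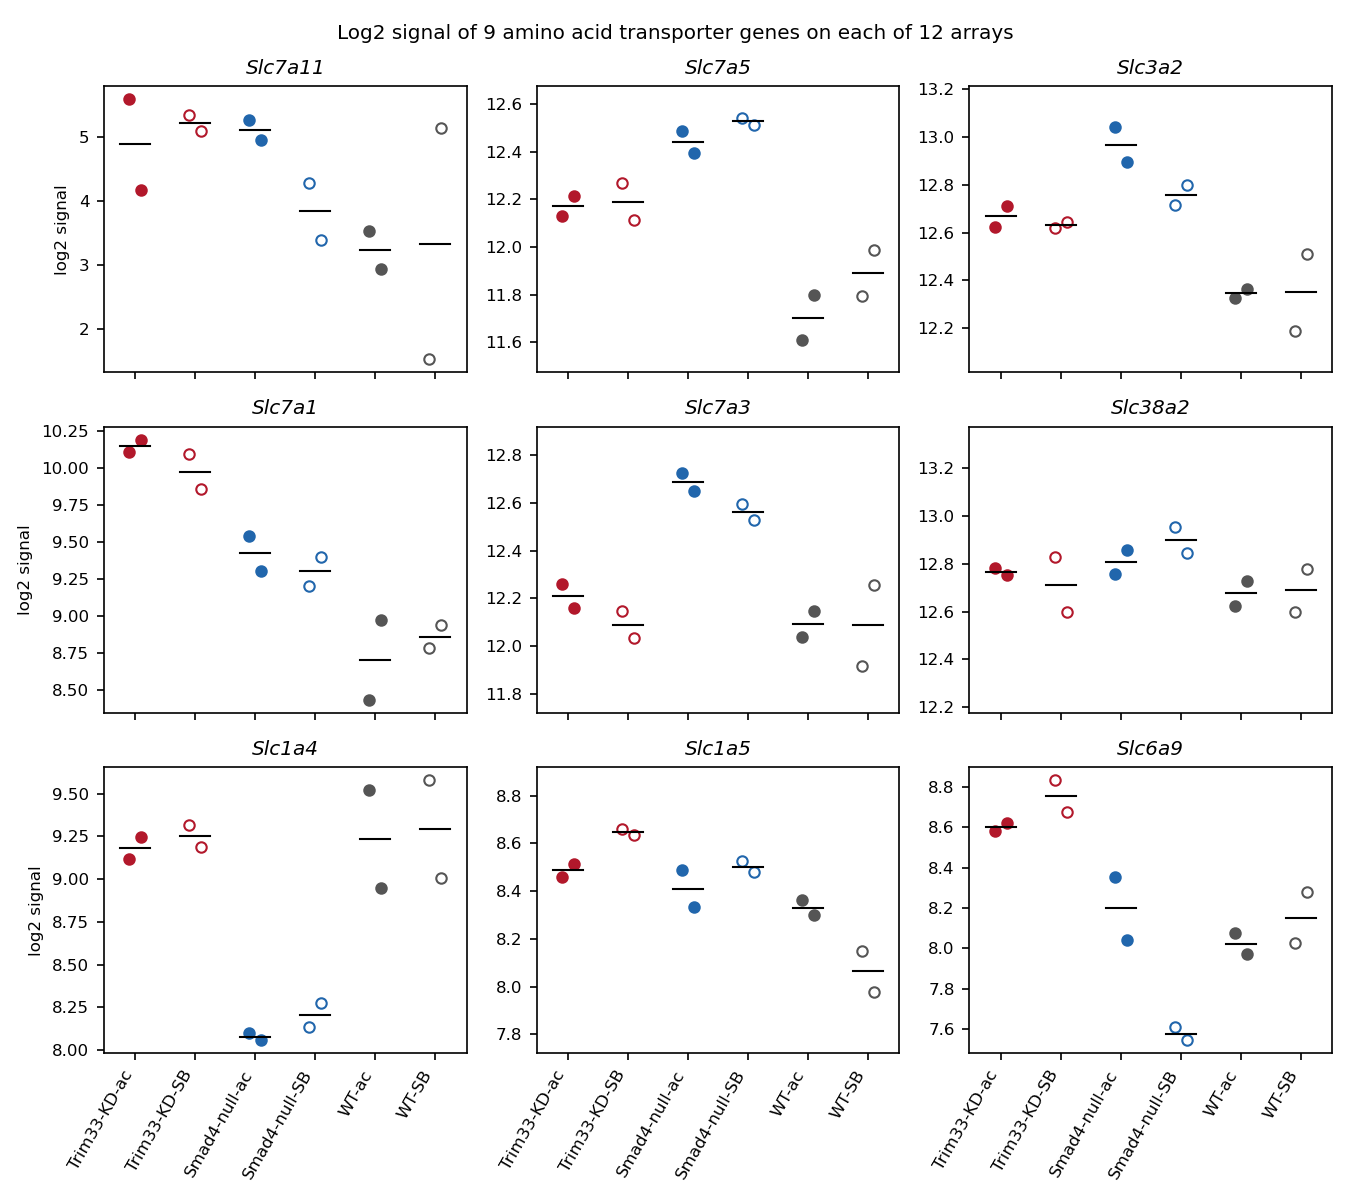
Log2 signal (y axis, one scale per gene) of the brightest probe set of each transporter gene on each array. Points are arrays, filled with activin and open with SB431542, grouped from left to right as Trim33-KD, Smad4-null and WT, and lines are group means (n = 2). Slc7a1 stands highest in Trim33-KD, Slc7a3 and Slc7a5 stand highest in Smad4-null, and Slc1a4 stands lowest in Smad4-null.

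The first question was whether loss of Smad4 goes with other transporter levels than WT, over both treatments. In Smad4-null embryoid bodies, 4 of the 9 genes rose, 1 fell and 4 did not pass the test. The genes that rose were Slc7a5, Slc3a2, Slc7a1 and Slc7a3, by 1.43-fold to 1.61-fold, and Slc1a4 fell to 45.9% of its WT signal. Among all genes, 7.12% were called higher and 11.3% lower in this comparison. All 4 Smad4-null arrays lay above all 4 WT arrays for 4 of the 9 genes and below for 1, where 10.8% of all genes lay above and 15% below. The median difference of the 9 genes was 0.52, against -0.03 over all genes.

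The heterodimer of Slc3a2 and Slc7a5 is the main carrier of leucine in many dividing cells. Slc7a5 had 12.13 and 12.22 in Trim33-KD-ac, 12.27 and 12.11 in Trim33-KD-SB, 12.49 and 12.39 in Smad4-null-ac and 12.54 and 12.51 in Smad4-null-SB, against 11.61 and 11.80 in WT-ac and 11.80 and 11.99 in WT-SB. Every Smad4-null array lay above every array of the other genotypes, and every WT array lay below the rest. Slc7a5 rose by 0.69 ± 0.09 (SE) in Smad4-null relative to WT, a fold of 1.61 (95% interval 0.48 to 0.89 on the log2 scale, adjusted p = 0.00209). Of the 10 genes measured on each side of Slc7a5 along chromosome 8, 12 were brighter ones. Among these, 5 were also called higher in Smad4-null and 1 lower, with a median difference of 0.35. Of all genes, bright or dim, 7.12% were called higher and 11.3% lower. The part of this neighbourhood in the Slc7a5 difference was not tested.

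Slc3a2, the heavy chain, had 12.62 and 12.71 in Trim33-KD-ac, 12.62 and 12.64 in Trim33-KD-SB, 13.04 and 12.89 in Smad4-null-ac and 12.72 and 12.80 in Smad4-null-SB, against 12.33 and 12.36 in WT-ac and 12.19 and 12.51 in WT-SB. The genotypes ran in the same order as for Slc7a5, with no overlap between any pair of them. Slc3a2 rose by 0.52 ± 0.09 (SE) in Smad4-null relative to WT (1.43-fold, adjusted p = 0.00842).

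Among the cationic carriers, which bring in arginine, lysine and ornithine, Slc7a3 had 12.26 and 12.16 in Trim33-KD-ac, 12.15 and 12.03 in Trim33-KD-SB, 12.72 and 12.65 in Smad4-null-ac and 12.60 and 12.53 in Smad4-null-SB, against 12.04 and 12.15 in WT-ac and 11.92 and 12.26 in WT-SB. The Smad4-null arrays stood apart from all others, while Trim33-KD and WT overlapped. Slc7a3 rose by 0.54 ± 0.10 (SE) in Smad4-null relative to WT (1.45-fold, adjusted p = 0.00848). Slc7a1, the widely expressed cationic carrier, rose by 0.58 ± 0.14 (SE) in Smad4-null (1.5-fold, adjusted p = 0.0274), and its arrays are given with Trim33-KD below. This Slc7a1 call ended when any 1 of Smad4-null-ac replicate 1, Smad4-null-SB replicate 1, Smad4-null-SB replicate 2, WT-ac replicate 1 or WT-SB replicate 1 was left out (0.45 to 0.63, adjusted p 0.0575 to 0.0969).

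Slc1a4 exchanges small neutral amino acids such as alanine, serine and cysteine. It had 9.12 and 9.25 in Trim33-KD-ac, 9.32 and 9.19 in Trim33-KD-SB, 8.10 and 8.06 in Smad4-null-ac and 8.13 and 8.27 in Smad4-null-SB, against 9.52 and 8.95 in WT-ac and 9.58 and 9.0 in WT-SB. All 4 Smad4-null arrays lay below all others, and the Trim33-KD arrays lay within the WT range. Slc1a4 fell by 1.12 on the log2 scale in Smad4-null relative to WT (SE 0.17, 95% interval -1.51 to -0.73, adjusted p = 0.00386). The other Slc1a4 probe sets were also called lower over all 34945 single-gene probe sets, with differences of -0.75 (adjusted p = 0.0209) and -1.16 (adjusted p = 0.0198), where 7.63% of probe sets were called lower. The WT arrays of low 18S signal were the higher array of each WT pair for the brightest probe set; without them the Smad4-null difference was -0.84 (adjusted p = 0.0137).

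Without those WT arrays the calls of Slc7a5 and Slc1a4 held, and those of Slc3a2 (0.43, adjusted p = 0.0527), Slc7a3 (0.42, adjusted p = 0.0524) and Slc7a1 (0.41, adjusted p = 0.129) ended. Centring each array on its median in place of the authors' scaling shifted the median of all genes by 0.15 in Smad4-null minus WT and turned the share of higher among called genes to 63.9%, against 38.6% as deposited; the 5 transporter calls kept their direction, with Slc7a5 at 0.84 and Slc1a4 at -0.97.

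The remaining genes did not pass in Smad4-null minus WT. Slc1a5, a glutamine carrier, had 8.46 and 8.51 in Trim33-KD-ac, 8.66 and 8.64 in Trim33-KD-SB, 8.49 and 8.33 in Smad4-null-ac and 8.53 and 8.48 in Smad4-null-SB, against 8.36 and 8.30 in WT-ac and 8.15 and 7.98 in WT-SB. Only 1 Smad4-null array lay within the WT range, and the difference was 0.26 (95% interval 0.08 to 0.44, adjusted p = 0.0572). Slc38a2, a sodium-coupled carrier of small neutral amino acids, lay between 12.60 and 12.83 in Trim33-KD and between 12.76 and 12.95 in Smad4-null, against 12.60 to 12.78 in WT. Its Smad4-null difference was 0.17 (95% interval -0.04 to 0.38, adjusted p = 0.247). A dimmer Slc38a2 probe set stood further apart, at 10.61 in Smad4-null (10.47 to 10.70) against 10.27 in WT (10.20 to 10.40). The dimmest averaged 6.94 against 6.47. Slc6a9, a glycine carrier, differed by -0.20 (95% interval -0.44 to 0.04, adjusted p = 0.247). The dimmer Slc6a9 probe set went the other way, at 6.89 in Smad4-null against 6.69 in WT.

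**Figure D2:**
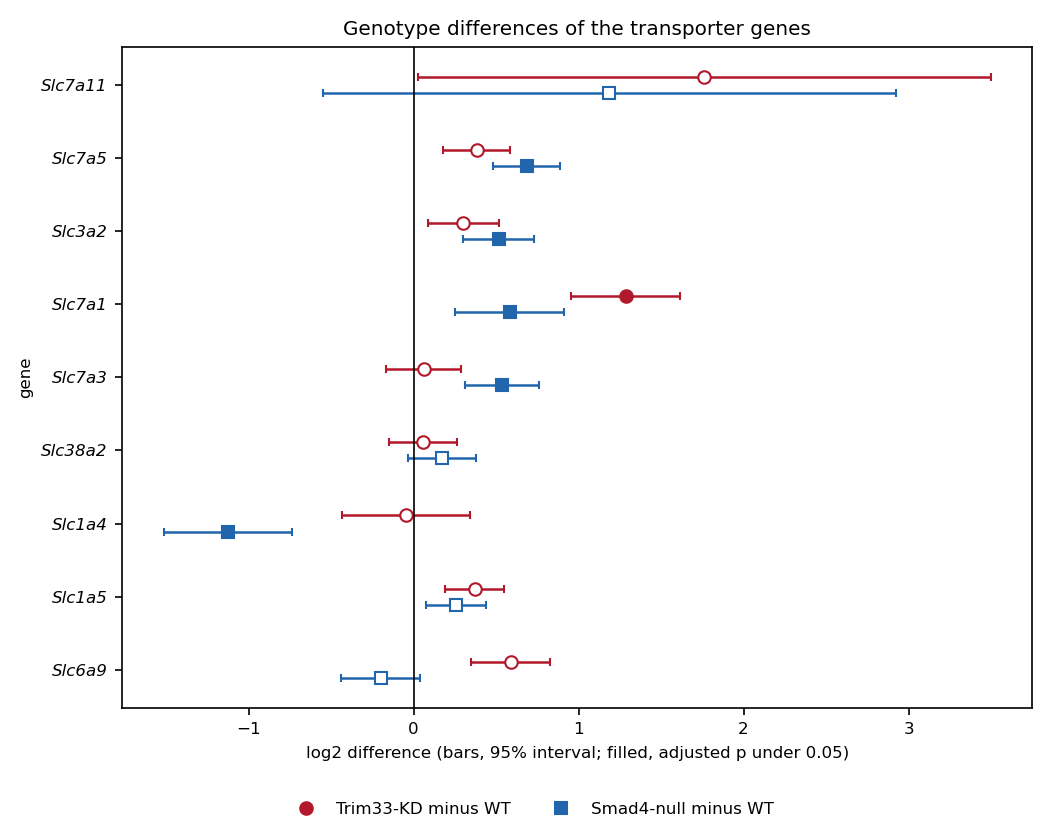
Difference in log2 signal from WT (x axis) of each transporter gene in Trim33-KD (circles) and Smad4-null (squares), both treatments together, with 95% intervals from limma. Filled symbols have an adjusted p under 0.05 over all genes. Slc1a4 stands at -1.12 in Smad4-null and -0.05 in Trim33-KD, and Slc7a1 is the filled circle at 1.28.

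The same question was asked of Trim33. In Trim33-KD embryoid bodies 1 of the 9 genes, Slc7a1, rose, and none fell, where 0.445% of all genes were called higher and 0.203% lower. The median difference of the 9 genes was 0.37, against -0.04 over all genes. All 4 Trim33-KD arrays lay above all 4 WT arrays for 5 of the 9 genes (Slc7a5, Slc3a2, Slc7a1, Slc1a5 and Slc6a9), where 6.12% of all genes did so, and for 0 of the 9 did they lie below, where 6.28% did.

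Slc7a1 had 10.11 and 10.20 in Trim33-KD-ac, 10.10 and 9.86 in Trim33-KD-SB, 9.54 and 9.31 in Smad4-null-ac and 9.20 and 9.40 in Smad4-null-SB, against 8.43 and 8.97 in WT-ac and 8.78 and 8.94 in WT-SB. The genotypes formed 3 levels without overlap, with Trim33-KD at the top and WT at the bottom. Slc7a1 rose 2.44-fold in Trim33-KD relative to WT (1.28 ± 0.14 on the log2 scale, SE, 95% interval 0.95 to 1.62, adjusted p = 0.0174). A further Slc7a1 probe set of similar brightness gave 0.92 (adjusted p = 0.0409 over all probe sets, of which 0.112% were called higher), and a dim one gave -0.17 (adjusted p = 0.728). Over the 25 alternatives Slc7a1 stayed between 0.68 and 1.42, and 17 of them called it; without the WT arrays of low 18S signal it was 1.11 (adjusted p = 0.0994), with 0 of all genes called.

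Slc6a9 had 8.58 and 8.62 in Trim33-KD-ac, 8.83 and 8.67 in Trim33-KD-SB, 8.35 and 8.04 in Smad4-null-ac and 7.61 and 7.55 in Smad4-null-SB, against 8.08 and 7.97 in WT-ac and 8.03 and 8.28 in WT-SB. Every Trim33-KD array was above every other array, while Smad4-null and WT overlapped. The difference between Trim33-KD and WT was 0.59 ± 0.10 (SE, adjusted p = 0.0646), and a dimmer Slc6a9 probe set gave 0.62 (adjusted p = 0.192). Slc7a5 differed by 0.38 (adjusted p = 0.111), Slc1a5 by 0.37 (adjusted p = 0.0912) and Slc3a2 by 0.30 (adjusted p = 0.180) between Trim33-KD and WT. By their brightest probe sets, Slc7a3 (0.06), Slc38a2 (0.06) and Slc1a4 (-0.05) had 95% intervals that ran from -0.44 to 0.34 at the widest. A difference of the size that Slc1a4 had in Smad4-null lies outside its interval here. The dimmer Slc1a4 probe sets averaged 8.63 and 8.39 in Trim33-KD, against 8.22 and 8.46 in WT. Those of Slc38a2 averaged 10.07 and 6.30 in Trim33-KD, against 10.27 and 6.47 in WT.

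Slc7a11, the cystine carrier, was the dimmest of the 9 genes and was below 64 on the linear scale on every array. It had 5.59 and 4.18 in Trim33-KD-ac, 5.34 and 5.09 in Trim33-KD-SB, 5.27 and 4.95 in Smad4-null-ac and 4.28 and 3.40 in Smad4-null-SB, against 3.54 and 2.94 in WT-ac and 1.53 and 5.14 in WT-SB. The WT-SB pair alone spans nearly the range of all arrays. Its differences from WT were 1.76 ± 0.74 (SE) in Trim33-KD (adjusted p = 0.289) and 1.19 ± 0.74 in Smad4-null (adjusted p = 0.341). The other Slc7a11 probe set gave 0.14 and -0.45 for the same comparisons. Without WT-SB replicate 2 the Smad4-null difference of Slc7a11 was 2.09 (adjusted p = 0.0191). With values floored at 64 all of its differences were 0.

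**Figure D3:**
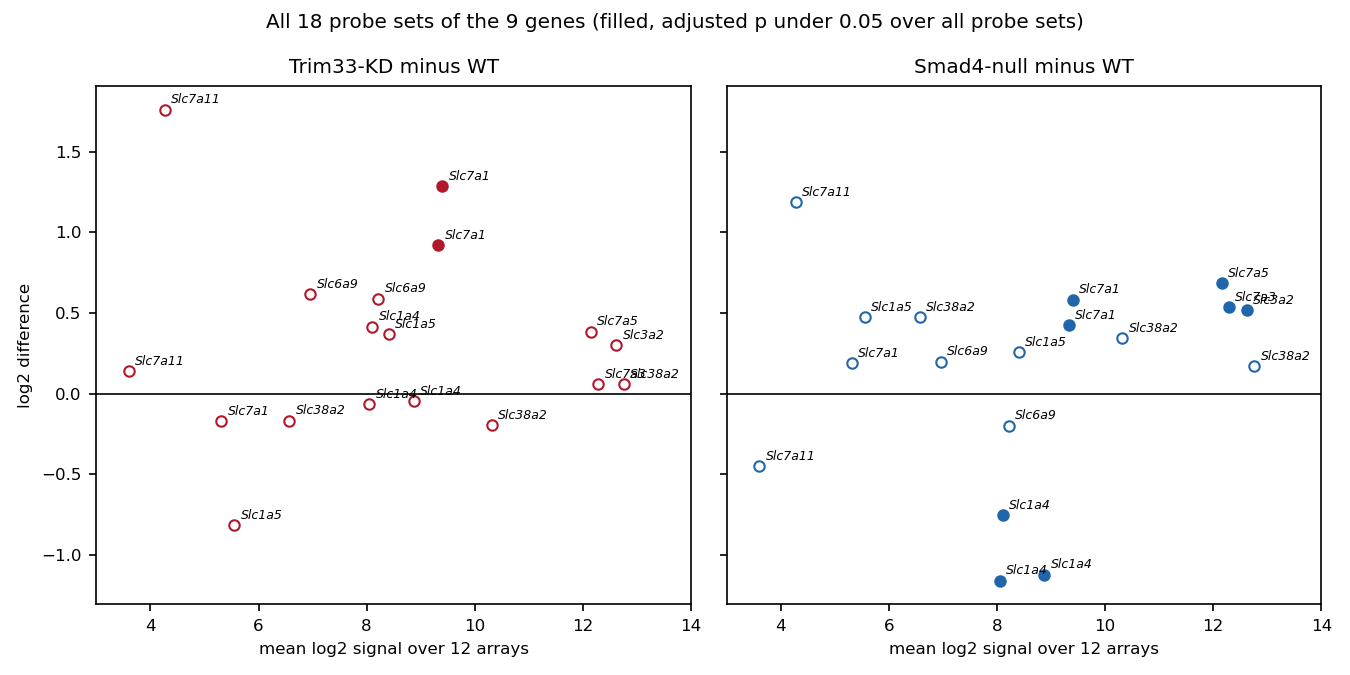
Difference from WT in Trim33-KD (left) and Smad4-null (right) of all 18 probe sets of the 9 genes (y axis, log2) against their mean log2 signal over 12 arrays (x axis). Filled points have an adjusted p under 0.05 over all probe sets. The 3 Slc1a4 probe sets lie together below 0 in Smad4-null and the brighter pair of Slc7a1 lies above 0 in both genotypes, while in Trim33-KD the dim probe sets of Slc1a5 (-0.82) and Slc7a1 (-0.17) lie below 0 and the bright ones above. In Smad4-null those dim probe sets lie above 0, as the bright ones do.

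Trim33-KD and Smad4-null were then compared directly. Of the 9 genes 3 rose in Trim33-KD relative to Smad4-null (11.1% of all genes were called higher), 1 fell (7.32% were called lower) and 5 did not pass. Slc1a4 was 2.11-fold higher in Trim33-KD (1.08 ± 0.17, SE, adjusted p = 0.00461), Slc6a9 was 1.73-fold higher (0.79 ± 0.10, adjusted p = 0.00235) and Slc7a1 was 1.63-fold higher (0.70 ± 0.14, adjusted p = 0.0136). Slc7a3 fell by 0.47 on the log2 scale in Trim33-KD relative to Smad4-null (SE 0.10, adjusted p = 0.0141). The Slc7a3 call ended without Trim33-KD-ac replicate 2, Smad4-null-ac replicate 1 or Smad4-null-SB replicate 1 (adjusted p 0.0504 to 0.0549), and the Slc7a1 call without Smad4-null-SB replicate 1 (adjusted p = 0.0526). Slc7a5 (-0.30, adjusted p = 0.0515) and Slc3a2 (-0.21, adjusted p = 0.165) did not pass, though their Trim33-KD arrays all lay below the Smad4-null arrays. Counted over the 9 genes, Trim33-KD lay wholly above Smad4-null for 3 and wholly below for 3, where 15.2% and 12% of all genes did so. For Slc38a2 the brightest probe set gave -0.11 (adjusted p = 0.433), and a dimmer one was called lower at -0.54 (adjusted p = 0.0163 over all probe sets, of which 5.5% were called lower).

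Split by treatment, the Smad4-null differences had the same sign with activin and with SB431542 for 8 of the 9 genes. With activin, Slc7a5 (0.74), Slc3a2 (0.62) and Slc7a3 (0.60) were called higher and Slc1a4 (-1.16) lower than in WT, where 9.29% of all genes were called. With SB431542, Slc7a5 (0.63) and Slc1a5 (0.44) were called higher and Slc1a4 (-1.09) lower, where 9.1% were called. Of these calls, the Slc1a5 one (adjusted p = 0.0495) held in 5 of the 25 alternatives, Slc1a4 with SB431542 in 12, Slc7a3 with activin in 8 and Slc3a2 with activin in 15, and the others in 19 or 20. Slc6a9 was the exception in sign, at 0.17 with activin (adjusted p = 0.509) and -0.57 with SB431542 (adjusted p = 0.0533). Its dimmer probe set averaged 6.82 in Smad4-null-ac against 6.41 in WT-ac, and 6.95 in Smad4-null-SB against 6.96 in WT-SB. In Trim33-KD no transporter was called within a treatment, where 0.0055% of all genes were called with activin and 0% with SB431542. Slc7a1 there was 1.45 above WT with activin (adjusted p = 0.104) and 1.12 above with SB431542 (adjusted p = 0.180). Slc7a5 and Slc1a4 were the genes called in Smad4-null in both treatments. Over the 25 alternatives Slc7a5 stayed at 0.64 to 0.83 with activin and at 0.54 to 0.84 with SB431542. Slc1a4 stayed at -1.44 to -0.87 with activin and at -1.38 to -0.80 with SB431542. Alternatives that leave out arrays leave 1 array in some groups. In some of these fits no transporter was called within a treatment, and most of them called fewer of all genes too.

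The second question was whether 2 h of activin against SB431542 moves these carriers. By limma 0 of the 9 genes were called in Trim33-KD, Smad4-null or WT, where 0.011%, 0.011% and 0.033% of all genes were. At an unadjusted p under 0.05 the counts were 0 in Trim33-KD, 1 in Smad4-null (Slc6a9) and 1 in WT (Slc1a5), where 4.21%, 6.81% and 4.02% of all genes had such a p. Leaving out Slc7a11, activin differences of the other 8 genes ran from -0.16 to 0.18 in Trim33-KD, from -0.13 to 0.62 in Smad4-null and from -0.19 to 0.27 in WT. Their brightest probe sets had 95% intervals within -0.62 to 0.65 in Trim33-KD, -0.68 to 0.96 in Smad4-null and -0.62 to 0.52 in WT. Changes past 1 on the log2 scale lie outside these intervals, but not outside those of some dimmer probe sets. In WT the dimmest Slc38a2 probe set gave -0.58 (95% interval -1.26 to 0.10) and the dimmer Slc6a9 one -0.55 (-1.10 to -0.0023). In Trim33-KD the dim Slc1a5 probe set gave 1.58 (-0.40 to 3.56).

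Slc6a9 was the gene farthest from 0, with 8.35 and 8.04 in Smad4-null-ac against 7.61 and 7.55 in Smad4-null-SB. These pairs do not overlap, and 28.7% of all genes had their activin pair above the SB431542 pair in Smad4-null. The difference was 0.62 ± 0.15 (SE, adjusted p = 0.427), and the dimmer Slc6a9 probe set gave -0.12. The Smad4-null response of Slc6a9 exceeded that of WT by 0.75 (adjusted p = 0.51). Slc1a5 differed by 0.27 between activin and SB431542 in WT, where its pairs did not overlap either (9.66% of all genes had their activin pair above in WT), and its adjusted p was 0.9996. The dim Slc1a5 probe set went the other way in WT, at -0.41. Of the differences between responses, 0 of the 9 genes were called for Smad4-null minus WT or for Trim33-KD minus WT, where 0% of all genes were, and 1 of the 9 in each had an unadjusted p under 0.05, where 7.24% and 2.67% of all genes did.

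**Figure D4:**
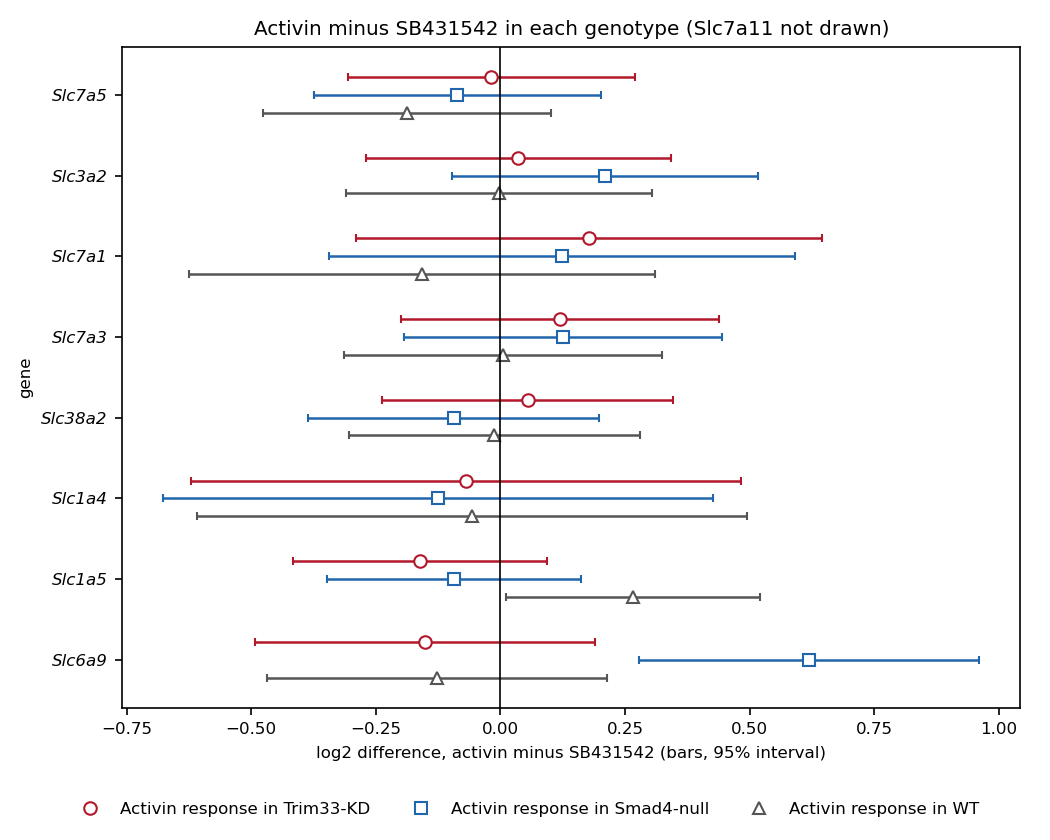
Activin minus SB431542 difference in log2 signal (x axis) of 8 transporter genes in Trim33-KD (circles), Smad4-null (squares) and WT (triangles), with 95% intervals from limma (n = 2 arrays a group). Slc7a11 is not drawn because of its low signal. No symbol is filled, since no adjusted p was under 0.05, and Slc6a9 in Smad4-null lies farthest from 0 at 0.62.

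RefSeq promoter windows (assembly GRCm38.p6, 250 bases before to 50 after the start) were available for 6 of the 9 genes, in 9 windows. They were searched on both strands for TGATGNAA, the core of the C/EBP-ATF response element that ATF4 binds, and for TGACNNNGC, the core of the antioxidant response element that NRF2 binds. The first was matched in 2 of the 9 windows (1 each of Slc7a11 and Slc1a4) and in 3.97% of all 32851 windows. The second was matched in 4 of the 9 (1 each of Slc7a1 and Slc38a2, and 2 of Slc6a9) and in 12.4% of all windows. A match describes letters only. Slc7a1 and Slc1a4 are printed because they had the largest called differences in Trim33-KD and Smad4-null, and Slc7a11 because it holds a pair of matches to the first core, at -66 on the gene's strand and -47 on the opposite one. The Slc1a4 match lies at -4 on the opposite strand and the Slc7a1 match to the second core at -11 on the opposite strand, counted from the start of transcription. Each line runs 5′ to 3′ on the gene's strand (minus), over 120 bases before and 10 after the start, with matches in capitals, at chr5:148399895-148400024 for Slc7a1, chr11:20332704-20332833 for Slc1a4 and chr3:50443604-50443733 for Slc7a11.
Slc7a1: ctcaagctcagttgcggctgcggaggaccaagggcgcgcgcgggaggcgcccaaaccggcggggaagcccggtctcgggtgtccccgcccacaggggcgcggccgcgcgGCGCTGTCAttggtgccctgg
Slc1a4: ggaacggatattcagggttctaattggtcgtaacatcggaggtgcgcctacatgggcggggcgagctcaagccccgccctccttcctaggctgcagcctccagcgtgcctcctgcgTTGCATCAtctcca
Slc7a11: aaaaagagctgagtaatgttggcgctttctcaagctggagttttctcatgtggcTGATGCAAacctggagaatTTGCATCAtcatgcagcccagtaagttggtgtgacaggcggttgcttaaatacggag

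Other genes of the amino acid response were read beside the carriers, from a list of 26 ATF4 targets and serine, glycine and cysteine enzymes of which 25 were measured. In Trim33-KD 7 of the 25 rose relative to WT and none fell, where 0.445% of all genes were called higher and 0.203% lower. The median difference was 0.63, against -0.04 over all genes. The brighter ones were Chac1, which degrades glutathione (2.00, adjusted p = 0.00190), Cth, which makes cysteine (0.86, adjusted p = 0.0107), the transcription factor Cebpb (0.81, adjusted p = 0.0461), Asns, asparagine synthetase (0.73, adjusted p = 0.0376), and Psat1 of serine synthesis (0.67, adjusted p = 0.0227). Atf4 itself was at -0.20 (adjusted p = 0.426). Without the WT arrays of low 18S signal the median of the 25 was 0.58, and without the arrays of narrow signal spread it was 0.59. Both fits leave 1 array in some groups. Few or no genes were then called, in this list and over all genes alike.

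In Smad4-null 5 of the same 25 genes rose and 2 fell, where 7.12% of all genes were called higher and 11.3% lower, and the median was 0.09 against -0.03 over all genes. Stc2, a secreted stress glycoprotein (0.80, adjusted p = 0.0220), Asns (0.48, adjusted p = 0.0176), Psat1 (0.38, adjusted p = 0.0146) and Mthfd2 of mitochondrial folate metabolism (0.36, adjusted p = 0.0309) rose, and Sesn2, a leucine sensor, fell (-0.90, adjusted p = 0.00229). Without the WT arrays of low 18S signal the median was 0.14, and without the arrays of narrow spread it was 0.09. Most of the higher calls then ended, and fewer genes were called over all genes too. Between the mutants 12 of the 25 were higher in Trim33-KD than in Smad4-null and none lower, where 11.1% of all genes were called higher and 7.32% lower.

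A list of 18 NRF2 and glutathione genes, with 15 measured, had none called in Trim33-KD (median -0.01). Of all genes 0.445% were called higher and 0.203% lower there, so 0 of 15 is near those shares. In Smad4-null 2 rose, the quinone reductase Nqo1 (0.81, adjusted p = 0.00381) and the heme oxygenase Hmox1 (0.48, adjusted p = 0.0226), and Cbs, which makes cystathionine, fell (-0.67, adjusted p = 0.0171). Counts of 2 and 1 among 15 are near the shares of all genes called in Smad4-null (7.12% higher and 11.3% lower). The Smad4-null median of the list was 0.09, and -0.01 without the WT arrays of low 18S signal. Fewer genes were then called, in this list and over all genes.

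Of 44 other amino acid transporters 42 were measured. In Trim33-KD none was called against WT, where 0.445% of all genes were called higher and 0.203% lower. Among 42 genes a count of 0 is near those shares. Their median was -0.14, against -0.04 over all genes. In Smad4-null 4 of the 42 rose and 7 fell, with a median of -0.11, where 7.12% of all genes were called higher and 11.3% lower with a median of -0.03. These counts are near the shares of all genes. The brighter ones that rose were the glutamate carrier Slc1a3 (0.80, adjusted p = 0.0381), the taurine carrier Slc6a6 (0.44, adjusted p = 0.0249) and Slc7a6, a light chain that pairs with Slc3a2 (0.38, adjusted p = 0.0360). Those that fell were the aromatic amino acid carrier Slc16a10 (-1.54, adjusted p = 0.00177), Slc7a7, a further Slc3a2 light chain (-1.14, adjusted p = 0.000285), the glutamine carrier Slc38a3 (-0.83, adjusted p = 0.00846) and the leucine carrier Slc43a1 (-0.39, adjusted p = 0.0421). Of the Slc3a2 light chains named here, Slc7a5 and Slc7a6 were thus called higher and Slc7a7 lower in Smad4-null, and Slc7a11 was not called. Without the WT arrays of low 18S signal the Smad4-null median of the 42 was -0.13. The higher calls then ended, and fewer genes were called over all genes too.

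**Figure D5:**
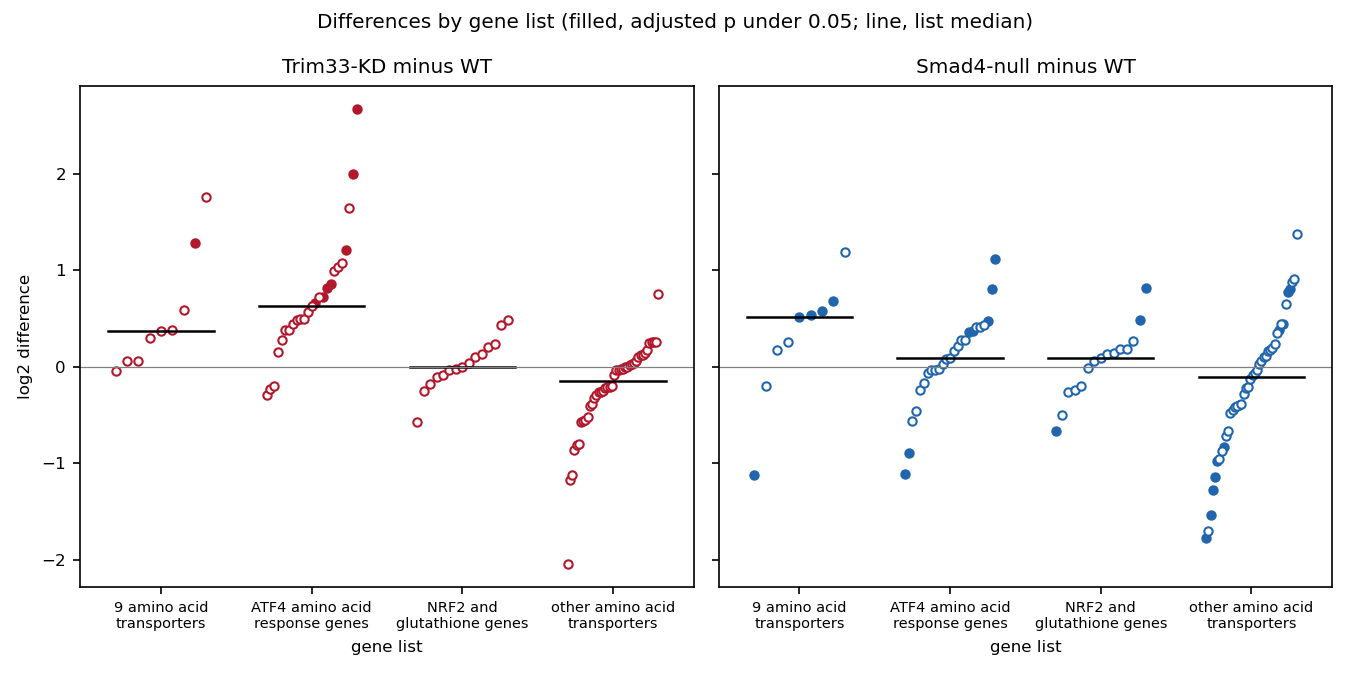
Difference from WT in log2 signal (y axis) of each measured gene in the 9 transporters and 3 further lists (x axis), in Trim33-KD (left) and Smad4-null (right). Filled points have an adjusted p under 0.05 over all genes and lines are list medians. The ATF4 list has 7 filled points above 0 in Trim33-KD, while the other transporters have 4 above and 7 below 0 in Smad4-null.

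The genes most like each carrier were sought among the 9097 genes of upper signal, by Pearson r over the 12 arrays. These arrays share genotypes, so a high r describes a common pattern across the 3 lines. Slc3a2 ran closest to Aars, the alanyl-tRNA synthetase (r = 0.967), and Slc7a1 to Calcoco2 (0.961) and Psat1 (0.960). Slc7a5 ran closest to Dnajc21 (0.966) and Mtrr (0.965), Slc7a3 to Lpl (0.982) and Zfp1 (0.979), and Slc1a4 to Chmp2b (0.980) and Repin1 (0.976). Slc6a9 ran closest to Ppm1a (0.957), Slc38a2 to Tab2 (0.914), Slc1a5 to Lcor (0.894) and the dim Slc7a11 to Denr (0.855).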

How the data were processed

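Total RNA of 12 embryoid body samples was hybridized to Affymetrix mouse arrays, 1 per sample, in 6 groups of 2. The authors deposited 1 log2 signal per probe set and array. The values show that all arrays were scaled to a linear mean of 500, with 2% trimmed at each end. The submitters' way of summarizing probes was not given in the sources used here; limma appears in the submitters' processing notes without a version. The log2 values were used unchanged. Of 45101 probe sets, 34945 had exactly 1 symbol in the platform table, 932 several, 9160 none, and 64 were controls. The brightest probe set stood for each of 18193 genes.

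All 12 arrays entered a single model of group means in limma 3.58.1 in R 4.3.3 (lmFit, eBayes, 6 residual degrees of freedom), for 12 comparisons, with Benjamini-Hochberg adjustment over all genes and a threshold of 0.05. The fit was tested on simulated data. Figures used Python 3.11.15 and matplotlib 3.10.9. The 9 genes and all gene lists were chosen with earlier results of these data known. Named beside the 9 genes were Trim33 and Smad4, list genes called in either mutant with signal in the upper 50% (up to 5 a direction) and the genes of most similar pattern; Atf4 was added after its values were seen. The 25 alternatives covered scaling, signal filters, probe set choice, the prior, array weights, the groups fitted, a replicate block and arrays left out. Arrays were not treated as paired by replicate number: of 15 pairs of groups, the deviations of same-numbered arrays correlated at over 0.1 in 6 (range -0.30 to 0.39).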

Additional observations from a re-analysis of the deposited data

How the results depend on the processing

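Over 25 alternatives no called difference of a transporter changed sign, and Slc7a5 and Slc1a4 in Smad4-null minus WT were called in all 25. The counts of called transporters follow as alternatives to 5 in Smad4-null minus WT, 1 in Trim33-KD minus WT, 4 and 3 in Smad4-null minus WT under activin and under SB431542, and 0 and 0 for Trim33-KD under activin and under SB431542. In Trim33-KD minus WT the count was 2 with quantile normalization, 2 with median centring, 4 among the upper 50% of genes, 0 with each gene's probe sets averaged, 3 with values floored at 64, 3 with a trended and robust prior, 0 with only the groups compared, 0 without the narrow-spread arrays (Smad4-null-ac replicate 1, WT-SB replicate 2), and 0 without the WT arrays of low 18S signal. In Smad4-null under activin it was 2 with all probe sets tested, and 0 with only the groups compared, without the narrow arrays and without the low 18S arrays. In Smad4-null under SB431542 it was 6 among the upper 50%, 5 with the floor, 5 with the trended prior, and 0 with only the groups compared, without the narrow arrays and without the low 18S arrays. In Trim33-KD under activin it was 1 among the upper 50% and 1 with the trended prior, and under SB431542 2 and 1. In Smad4-null minus WT it was 2 without the low 18S arrays, an alternative chosen after seeing the data. Calls over all genes moved with the setting as well. In Trim33-KD minus WT they were 118 in the main fit, 147 with quantile normalization and 137 with median centring, with more below. In Smad4-null under SB431542 they were 1656, against 2136 among the upper 50%, 1831 with the floor and 2406 with the trended prior. In Trim33-KD under activin they were 1, against 61 among the upper 50% and 50 with the trended prior. With SB431542 these 2 settings gave 105 and 101. Fitting fewer genes or fewer arrays changes the adjustment or the residual degrees of freedom by construction. For the other settings the cause was not tested.

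Leaving out each array in turn moved the counts of called transporters in each genotype comparison and in Smad4-null within each treatment. Some of these fits ended every transporter call in Trim33-KD minus WT and in Smad4-null within a treatment. Most of them called fewer of all genes too. The lone array left in a group is assumed to vary like the others. The Trim33-KD minus WT call of Slc7a1 ended without Trim33-KD-ac replicate 2, Trim33-KD-SB replicate 1, Trim33-KD-SB replicate 2 or WT-SB replicate 1 (1.22 to 1.34, adjusted p 0.0574 to 0.0876), and the mutant comparison had 2 calls without Smad4-null-SB replicate 1.

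With a replicate block the counts were 5 in Smad4-null minus WT, 1 in Trim33-KD minus WT, 4 between the mutants, 3 in Smad4-null under activin and 2 under SB431542. Over all genes, 118 were called in Trim33-KD minus WT, against 789 among the upper 50%, 637 with the trended prior, 230 with the floor, 65 with array weights, 52 with the mean of probe sets, 54 over all probe sets, 2 with only the groups compared and 10 to 103 with each array left out; in Smad4-null minus WT 3356 were called, against 1748 without the low 18S arrays and 2121 to 3132 with each array left out. Median centring put the share of higher calls at 41.1% in Trim33-KD minus Smad4-null (60.2% as deposited), 56.4% in Smad4-null under activin (39.7%) and 65.1% under SB431542 (32.7%); quantile normalization put it at 81.0% in Trim33-KD minus WT (68.6%).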

Other observations

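The measured neighbours along the chromosome were read for each carrier, 10 on each side. In Smad4-null minus WT the brighter neighbours had a median of 0.18 around Slc3a2 (8 genes, 2 called higher and 0 lower), -0.40 around Slc7a1 (6 genes, 0 higher and 3 lower) and 0.09 around Slc7a3 (11 genes, 0 higher and 3 lower). Of all genes, bright or dim, 7.12% were called higher and 11.3% lower. In Trim33-KD minus WT the median of the brighter neighbours of Slc7a1 was 0.03, with 0 called in either direction. There 0.445% of all genes were called higher and 0.203% lower.

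Further transporters of low signal were called in Smad4-null minus WT and are named after their values were seen. The glutamine carrier Slc38a5 was at -1.78 (adjusted p = 0.0235), the glutamate carrier Slc1a6 at -1.28 (adjusted p = 0.00801), the carrier Slc36a4 at -0.97 (adjusted p = 0.00281) and the proline carrier Slc6a7 at 0.78 (adjusted p = 0.0434). The Slc6a7 arrays of Smad4-null and WT overlapped. Among dim genes of the ATF4 list, the stress-responsive Nupr1 was at 2.68 in Trim33-KD minus WT (adjusted p = 0.0235) and 1.12 in Smad4-null minus WT (adjusted p = 0.0481), and the transcription factor Atf3 at 1.21 in Trim33-KD minus WT (adjusted p = 0.0461) and -1.11 in Smad4-null minus WT (adjusted p = 0.00644).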
